A study of Homo sapiens with 14 samples.

Results

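The forkhead genes were taken as every protein-coding gene of chromosomes 1 to 22 and X in GENCODE release 44 (hg38) whose symbol is FOX followed by a letter and a number. The rule found 45 FOX genes, FOXA1 to FOXS1, among 19962 protein-coding genes. No measured value entered the rule. Each FOX gene was described by the peaks of 10 deposited lists within 1 kb of its annotated start and over its body with 10 kb on either side.

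The lists come from CUT&RUN, an assay in which a nuclease tethered to an antibody cuts out the bound DNA for sequencing. All 14 libraries were made from untreated wild-type TC-32 cells, an established Ewing sarcoma line whose EWSR1::FLI1 fusion the study set out to map. They fall into 2 sets, named A and B in the labels without explanation. Set A holds IgG, FLI1 and H3K27ac libraries and set B holds IgG, FLI1, H3K9me3 and H3K27me3 libraries, each with 2 replicates. The labels do not say whether replicates are separate cultures. The 4 IgG libraries have no list of their own and enter as the control of each list. H3K27ac was thus measured only in set A, and H3K9me3 and H3K27me3 only in set B, so that mark and set cannot be told apart. The antibody is labelled FLI1, so a FLI1 peak does not separate the fusion from unfused FLI1.

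Forkhead factors bind DNA through a winged-helix domain and take their letter from the similarity of that domain. Some act in almost every tissue: the FOXO factors are held in the cytoplasm by AKT phosphorylation and act in stress and survival programs, and FOXM1 drives genes of mitosis. Many others (FOXA, FOXB, FOXC, FOXE, FOXF, FOXL) are switched on in particular embryonic tissues and are often kept off elsewhere by Polycomb, the complex that places H3K27me3. H3K27ac marks active promoters and enhancers, and H3K9me3 marks heterochromatin. EWSR1::FLI1 is known to bind single ETS sites, whose core reads GGAA, and tandem GGAA repeats, which it can turn into enhancers.

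FLI1 regions numbered 35210 and 40590 for the set A replicates, with 38221 and 29339 for those of set B. For H3K27ac there were 10219 and 17366 regions. H3K9me3 gave 36687 and 21770, and H3K27me3 gave 21461 and 16667. Read totals are not given in the lists, so the depth is unknown and a gene outside a list was not detected there rather than shown to be unbound. The starts of NR0B1, NKX2-2 and CCND1, known fusion-bound genes of Ewing sarcoma, carried FLI1 in all 4 lists. Of the other genes looked at for this purpose, CD99 had no FLI1 at the start in any list, and PAX7 had it in both set B lists only, with H3K27me3 in both. H3K27ac was listed at 0 of these 5 genes in either replicate, at the start and over the body with 10 kb on either side. A missing H3K27ac peak is therefore also read as not detected.

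The FOX starts were grouped by whether FLI1 was in all 4 lists and H3K27me3 in both. Of the starts meeting neither rule, 11 had FLI1 in 1 to 3 lists and 11 had it in none. FLI1 was present in all 4 lists at 9 of 45 FOX starts (20%), against 33.8% of all protein-coding starts, and in none of the 4 at 23 (51.1%), against 45.9%. H3K27me3 was present in both lists at 15 (33.3%), against 9.48% of all starts. H3K27ac was present in both lists at 1 FOX start (2.22%), against 11.3% of all starts, and H3K9me3 at 1 (2.22%), against 1.39%. FOXA3 was the single FOX start with FLI1 in all 4 lists and H3K27me3 in both, a pairing found at 0.13% of all starts. FOXM1 alone had FLI1 in all 4 and H3K27ac in both, a pairing at 8.07% of all starts. The members belong to 1 family and share sequence, so these shares are descriptions without a test.

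**Figure D1:**
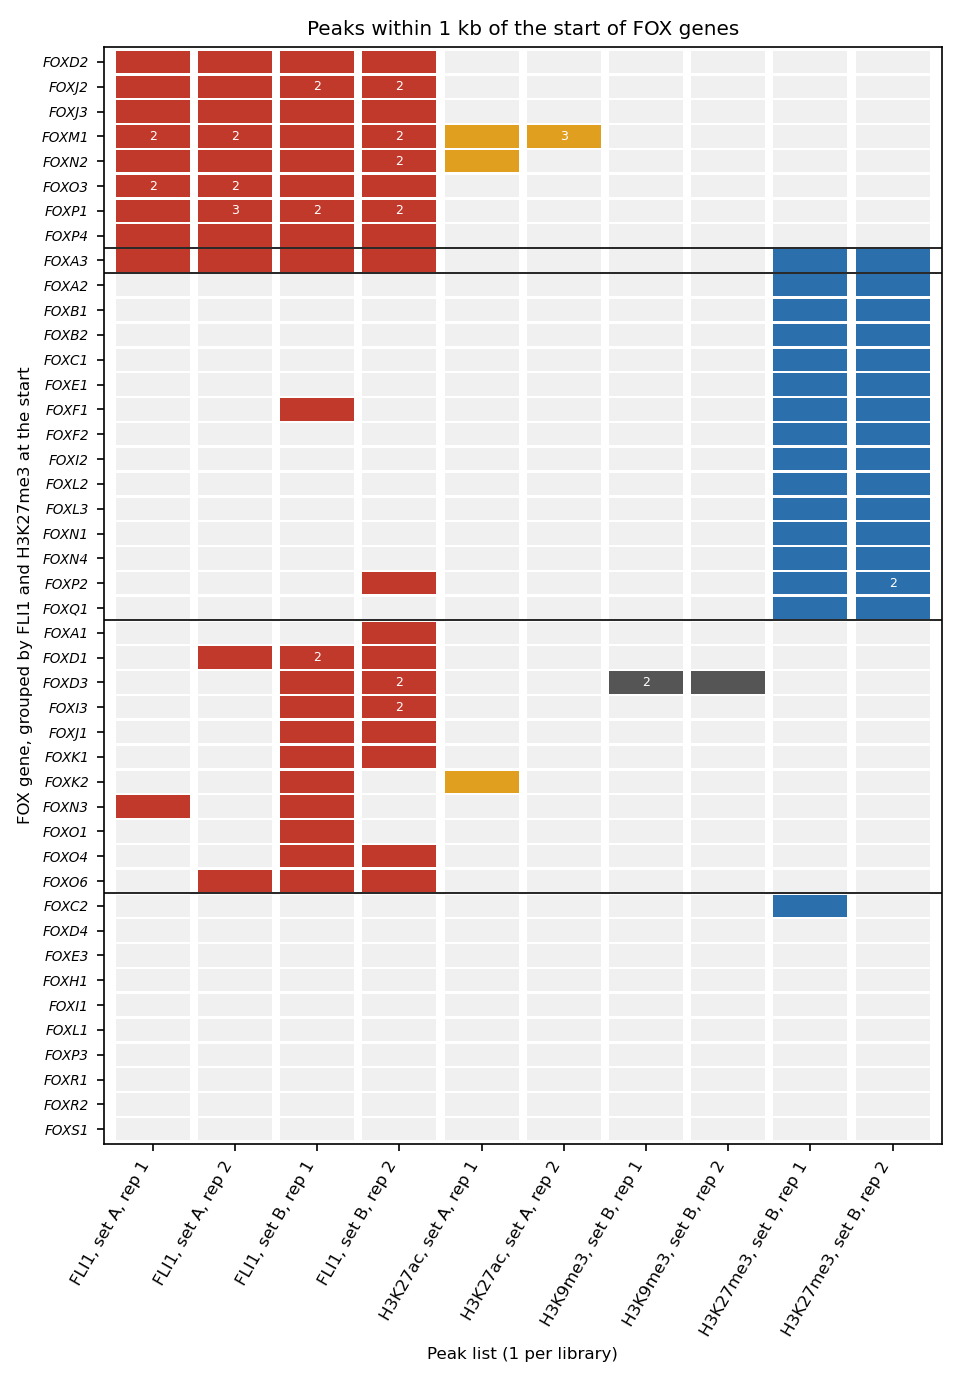
Peaks within 1 kb of the start of FOX genes (vertical axis) in each of the 10 peak lists (horizontal axis). A coloured cell has at least 1 peak, a number in it gives the peaks where there is more than 1, and grey means no peak was listed; the horizontal lines separate FLI1 in 4 lists (8 genes), FOXA3, H3K27me3 in both lists (14), FLI1 in 1 to 3 lists (11) and neither (10 shown).

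The same ordering appeared in the single lists. In set A, 10 and 11 FOX starts had FLI1 (22.2% and 24.4%) against 40.7% and 40.4% of all starts. In set B, 20 and 18 FOX starts had it (44.4% and 40%) against 49.7% and 46.3%. FOX starts with H3K27me3 numbered 17 and 15 in the replicates (37.8% and 33.3%), against 11.5% and 9.8% of all starts. For FLI1 the FOX share was therefore well below that of all genes in set A, and below but nearer to it in set B. For H3K27me3 it was above that of all genes in both lists. The lists count the same genes. Of the families set beside it, the 19 SOX genes had FLI1 in all 4 lists at 31.6% and H3K27me3 in both at 47.4% of their starts. The 39 HOX genes had them at 41% and 28.2%.

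**Figure D2:**
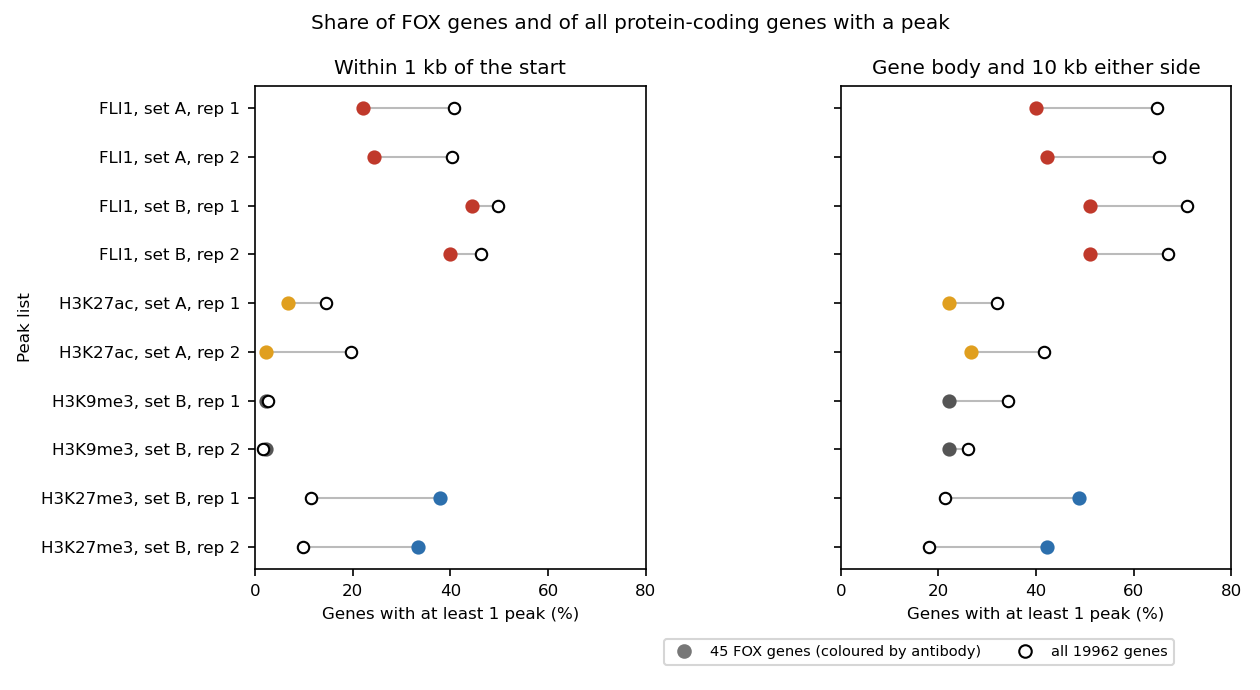
Share of the 45 FOX genes (filled, coloured by antibody) and of all 19962 protein-coding genes (open) with at least 1 peak in each list, in percent, within 1 kb of the start (left) and over the gene body with 10 kb on either side (right). The filled points lie to the left of the open ones for the 4 FLI1 and 2 H3K27ac lists and to the right for the 2 H3K27me3 lists in both panels.

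Gene structure differed between these groups. The 8 genes with FLI1 in 4 lists and no H3K27me3 had a median length of 60.3 kb and 10 exons, and 1 of them, FOXD2, has a single exon. The 14 with H3K27me3 alone had a median of 4.36 kb and 2 exons, with 5 single-exon genes. Over all FOX genes 33.3% have a single exon, against 5.57% of all genes. Among FOX genes with 1 or 2 exons, FLI1 was present in all 4 lists at 2 of 24 (8.33%) and H3K27me3 in both at 11 (45.8%), against 18.8% and 10.6% of all 2526 genes of that kind. Among FOX genes with 3 or more exons, FLI1 was present at 7 of 21 (33.3%) and H3K27me3 at 4 (19%), against 35.9% and 9.31%. For genes with 3 or more exons the FLI1 share of FOX thus lay near that of all genes.

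Most FOX starts are rich in CpG. Within 500 bases of the start the median count of CpG was 89 for FOX genes and 58 for all genes, and 38 of 45 FOX starts (84.4%) had an observed to expected CpG ratio of at least 0.6, against 60.1% of all. Among these CpG-rich starts, FLI1 was present in all 4 lists at 23.7% of FOX genes and 49.3% of all genes, H3K27ac in both at 2.63% and 16.5%, and H3K27me3 in both at 36.8% and 10.8%. The median CpG count was 100.5 in the FLI1 group and 93.5 in the H3K27me3 group. The 11 genes with neither had a median of 44, and 5 of them had a ratio of at least 0.6. Their counts ran from 5, at FOXR2, to 90, and those of the H3K27me3 group from 36 to 133, so the groups overlapped. The 150 bases before the start are given as examples for 2 H3K27me3-marked genes, FOXF2 and FOXE1, and 2 genes with no peak of any list at the start, FOXI1 and FOXR2. Sequences here and below are hg38, written 5′ to 3′, and capitals in these 4 mark each CG, of which there are 15, 15, 8 and 0.
FOXF2, chr6:1389426-1389575, plus strand: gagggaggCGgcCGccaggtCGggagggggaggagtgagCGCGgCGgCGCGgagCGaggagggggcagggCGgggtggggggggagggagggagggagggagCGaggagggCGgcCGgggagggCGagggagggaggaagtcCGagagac
FOXE1, chr9:97853076-97853225, plus strand: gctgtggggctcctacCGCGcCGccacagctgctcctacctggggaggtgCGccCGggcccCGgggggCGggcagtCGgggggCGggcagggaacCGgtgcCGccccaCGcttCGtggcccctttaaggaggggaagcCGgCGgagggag
FOXI1, chr5:170105747-170105896, plus strand: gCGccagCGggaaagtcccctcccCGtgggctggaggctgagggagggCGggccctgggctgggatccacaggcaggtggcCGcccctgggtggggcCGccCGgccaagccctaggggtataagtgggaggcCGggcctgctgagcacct
FOXR2, chrX:55623250-55623399, plus strand: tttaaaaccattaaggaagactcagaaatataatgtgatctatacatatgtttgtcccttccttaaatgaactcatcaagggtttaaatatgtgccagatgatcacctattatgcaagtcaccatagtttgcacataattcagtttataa

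The FLI1-bound starts were FOXA3, FOXD2, FOXJ2, FOXJ3, FOXM1, FOXN2, FOXO3, FOXP1 and FOXP4. The fold over IgG of the strongest FLI1 peak within 1 kb, a value of the authors' peak caller, is given in the order set A replicates 1 and 2, then set B replicates 1 and 2. FOXN2, a widely expressed forkhead gene on chromosome 2 (48314637 to 48379295), had folds of 10.26, 8.309, 23.06 and 10.46. FOXA3, a regulator of liver and gut genes on chromosome 19 (45863989 to 45873797), had 10.05, 8.922, 23 and 9.895. In both genes set B replicate 1 stood above the other lists. FOXD2, a factor of paraxial mesoderm and kidney on chromosome 1 (47438044 to 47440691), was even over the lists at 9.714, 12.46, 12.84 and 10.03.

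FOXM1, the mitotic activator on chromosome 12 (2857680 to 2877174), had folds of 8.539, 7.064, 19.13 and 11.18. FOXO3, a FOXO factor of stress resistance on chromosome 6 (108559835 to 108684774), ran the other way, with set A folds of 14.27 and 17.54 against set B folds of 11.75 and 3.94. The last of these stood at percentile 2.32 of its list, meaning that 2.32% of the regions in it had a lower fold, and was lost at a −log10 q of at least 5. FOXO3 was the only one of the 9 starts whose set A values were both above its set B values. That order also held for its percentiles, 84.4 and 89.8 against 72.8 and 2.32. At FOXM1, FOXP1 and FOXJ2 both set B values were above both set A values, as folds and as percentiles within the list. The difference between sets was not tested, with 2 libraries in each.

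The remaining 4 starts belong to the FOXP and FOXJ genes. FOXP4, with a role in lung and heart development, had 7.448, 8.443, 12.37 and 6.335, and its relative FOXP1, a repressor in lymphocytes, heart and brain, had 6.174, 5.539, 10.99 and 8.464. FOXJ2 had 4.78, 4.833, 9.24 and 8.81 and FOXJ3, a factor described in muscle and testis, had 5.031, 5.332, 9.035 and 5.617. Both FOXJ genes sat below percentile 30 of their lists in set A. The start peaks of all 4 lists had bases in common at 7 of the 9 starts, from 40 bases at FOXP4 to 845 at FOXA3, where they ran beyond 1 kb upstream, and had none in common at FOXJ2 and FOXJ3. Counting every FOX start with a peak in the single list, beyond these 9, gave 10, 11, 20 and 18 starts. Their median folds were 7.99, 7.06, 9.96 and 7.82, against 10.1, 9.69, 12.3 and 10.5 over all starts with a peak in that list.

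**Figure D3:**
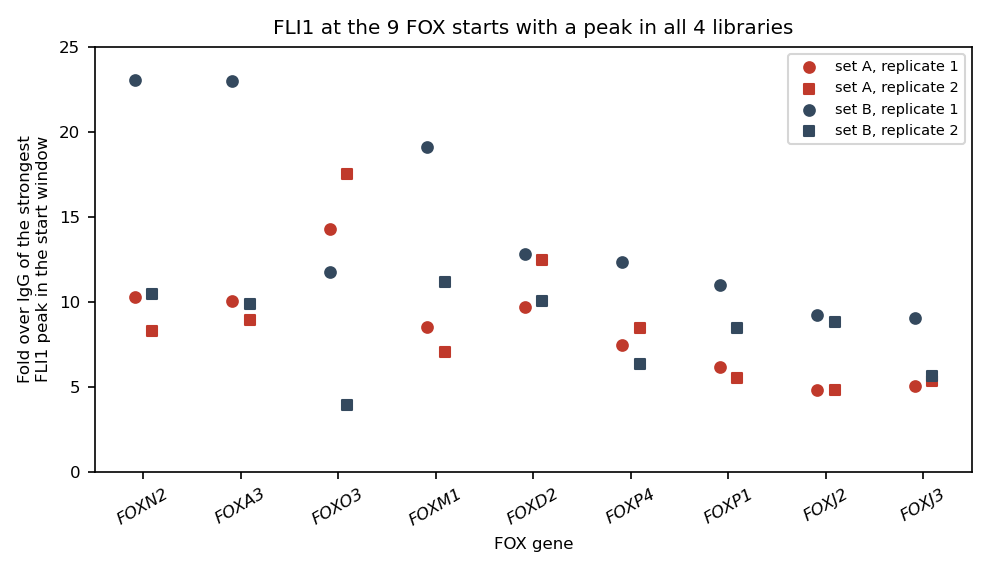
Fold over IgG of the strongest FLI1 peak within 1 kb of the start (vertical axis) in each of the 4 FLI1 libraries for the 9 FOX genes bound in all of them (horizontal axis); set A is red, set B blue, circles are replicate 1 and squares replicate 2. Values run from 3.94 (FOXO3, set B replicate 2) to 23.06 (FOXN2, set B replicate 1). Both set B libraries are above both set A libraries at FOXM1, FOXP1 and FOXJ2, as folds and as percentiles within each list, and the reverse holds at FOXO3; at FOXN2 and FOXJ3 the folds are so ordered but the percentiles are not.

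The bases under the strongest summit show what FLI1 covered at 4 of these starts. The motif searched was the ETS core GGAA, or TTCC where it lies on the other strand, and capitals mark every match. Sequences are given on the strand of the gene, 50 bases either side of the summit where no UTR is annotated. In the 101 bases around the summit FOXP1 holds 4 cores, FOXO3 holds 2, and FOXD2 and FOXA3 hold 1 each. The FOXA3 core lies outside the 78 bases printed. Of the bound starts not printed, FOXN2 holds 3 and FOXM1 holds 1, while FOXJ3, FOXP4 and the stronger FOXJ2 region hold 0.
FOXP1, chr3:71584266-71584366, minus strand: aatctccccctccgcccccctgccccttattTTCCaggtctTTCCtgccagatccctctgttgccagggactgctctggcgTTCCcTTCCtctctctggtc
FOXO3, chr6:108560415-108560515, plus strand: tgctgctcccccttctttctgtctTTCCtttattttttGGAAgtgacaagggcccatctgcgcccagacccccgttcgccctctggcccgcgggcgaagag
FOXD2, chr1:47437735-47437835, plus strand: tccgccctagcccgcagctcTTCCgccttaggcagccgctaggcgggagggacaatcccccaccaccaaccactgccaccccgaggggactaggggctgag
FOXA3, chr19:45862980-45863057, plus strand: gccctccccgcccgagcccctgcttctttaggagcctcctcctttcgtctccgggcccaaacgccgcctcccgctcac

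A GGAA or TTCC lay within 50 bases of the summit in 82 of the 113 FLI1 regions of FOX windows (72.6%), against 67.5%, 67.4%, 72.3% and 72.3% of all regions in the 4 lists. The longer core CCGGAA, searched on both strands and overlapping GGAA, was there in 3 (2.65%), against 2.45%, 2.28%, 4.19% and 4.59%. The FOX shares over the 113 regions thus lay inside or close to the range of the lists. For GGAA or TTCC the share was 64.3% (18 of 28) at the gene's own start and 75.3% (64 of 85) away from it. A match is a description of the letters and not a shown binding site.

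FOXM1 was the FOX gene with H3K27ac of both lists within 1 kb of the start. In replicate 1 its H3K27ac peak (2876219 to 2877652, fold 6.618) covered the start and the FLI1 summit. In replicate 2 there were 3 separate peaks around the start with folds of 3.789, 5.314 and 5.516. The starts of RHNO1 and TULP3 lie in the same region, and which gene the peaks belong to cannot be told apart. FOXN2 (fold 4.722) and FOXK2 (6.258) had H3K27ac within 1 kb of the start in replicate 1 only. Without set A H3K27ac replicate 2 the count of FOX starts was 3 in place of 1. FOXM1 left the count when a −log10 q of at least 5 was asked of each peak. The other 8 FLI1-bound FOX starts had no H3K27ac in both lists within 1 kb. At FOXN2 the replicate 1 peak lay 647 to 1296 bases after the start. It overlapped a replicate 2 peak at 1210 to 1644 bases, beyond the window. FOXK1 also had overlapping peaks, at 1751 to 2073 bases in replicate 1 and 1544 to 1861 in replicate 2. Within 2500 bases the FOX starts with H3K27ac in both lists were 3, FOXK1, FOXM1 and FOXN2.

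FOXA3 had FLI1 and H3K27me3 side by side. Its FLI1 peaks lay upstream, between 1534 and 183 bases before the start over the 4 lists, in a stretch that also holds the start of SYMPK. Its H3K27me3 regions began 96 and 353 bases after the start and ran to 4431 and 4135, with folds of 5.311 and 4.978. The 2 signals shared no base. FOXF1 and FOXP2 had H3K27me3 in both lists with FLI1 in 1 list of set B, with folds of 7.166 and 5.694. With these, 3 FOX starts (6.67%) had H3K27me3 and FLI1 in at least 1 list, against 1.03% of all starts.

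The H3K27me3-marked starts were those of FOXA2, FOXA3, FOXB1, FOXB2, FOXC1, FOXE1, FOXF1, FOXF2, FOXI2, FOXL2, FOXL3, FOXN1, FOXN4, FOXP2 and FOXQ1. Their regions were long. The region at these 15 starts had a median length of 11.1 kb in replicate 1 and 10 kb in replicate 2, against 3.96 and 2.9 kb over the 1892 starts of all genes marked in both lists, with median folds of 6.49 and 5.95 against 5.76 and 5.44. Over the gene with 10 kb on either side, H3K27me3 in both lists covered more than 50% of the bases for 5 FOX genes (11.1%), namely FOXB2, FOXE1, FOXF2, FOXL2 and FOXL3, against 0.676% of all genes. The FOX count was 9 at a threshold of 25% and 0 at 75%. At more than 50% the share was 26.3% of the 19 SOX genes and 17.9% of the 39 HOX genes, both above that of FOX.

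By bases covered in both replicates the leading FOX genes were FOXL3 with 15.65 kb, FOXF2 with 15.34, FOXL2 with 14.56 and FOXE1 with 14.47. FOXL2 specifies the ovary, FOXE1 the thyroid, and FOXF2 the mesenchyme of gut and palate. FOXB1 had 13.69 kb, FOXB2 12.3, FOXN1 11.03 and FOXA2 10.53. FOXB1 and FOXB2 act in the developing nervous system, FOXN1 in the thymus epithelium and FOXA2 in endoderm and floor plate. At FOXE1 (chromosome 9, 97853226 to 97856717) a single region of 14694 and 15044 bases enclosed the gene, with folds of 7.713 and 6.412. At FOXL2 (chromosome 3, 138944224 to 138947137) the region measured 11317 and 10071 bases with folds of 9.507 and 7.233, at percentiles 99.9 and 99 of its lists, and it also covered the start of FOXL2NB. FOXF2 (chromosome 6, 1389576 to 1395603) had 11721 and 10713 bases with folds of 8.399 and 7.151.

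**Figure D4:**
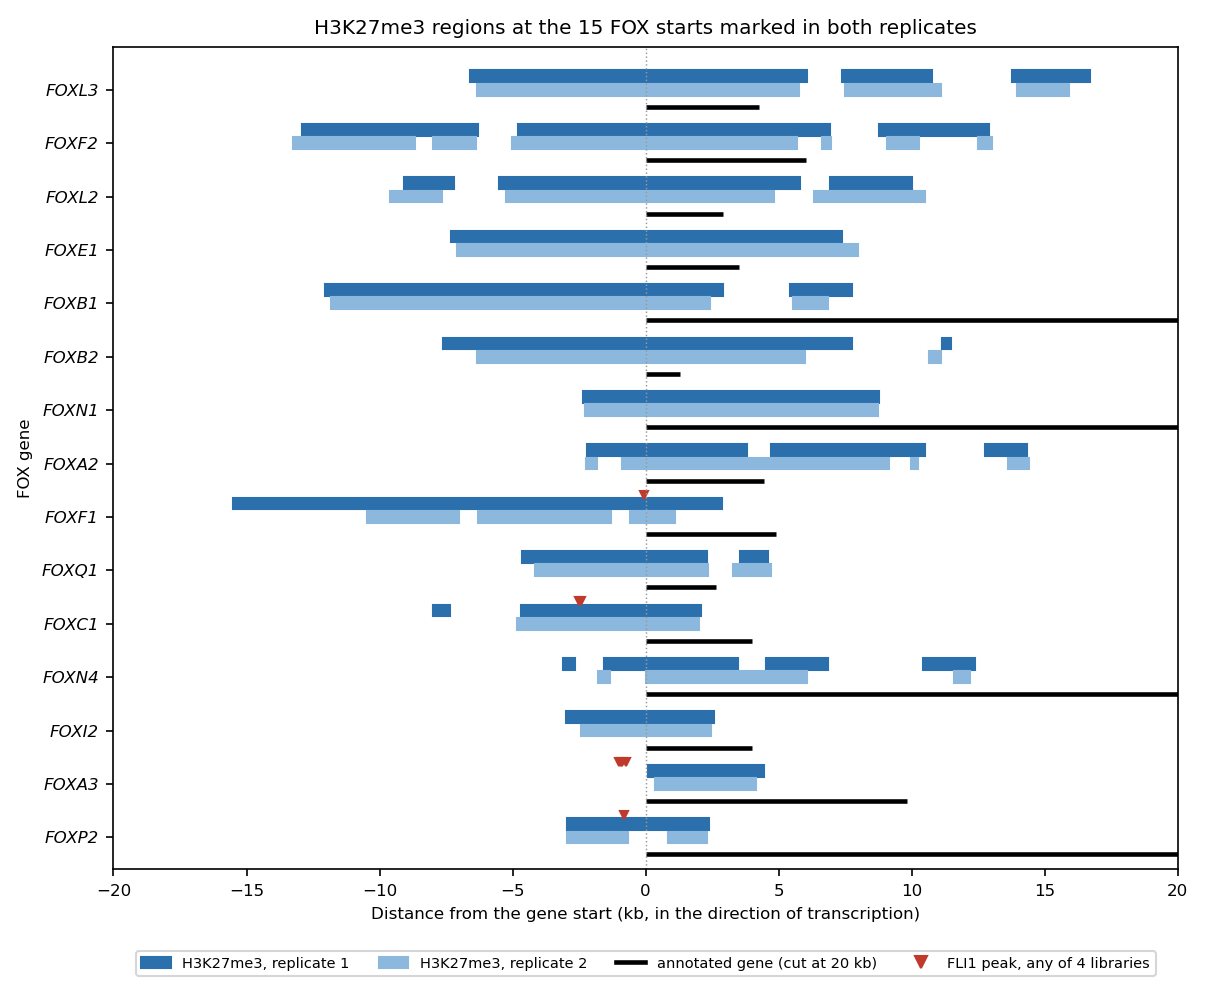
H3K27me3 regions of replicate 1 (dark) and replicate 2 (light) around the 15 FOX starts marked in both, by distance from the start in kb in the direction of transcription; black bars are the genes, cut at 20 kb, and red triangles are FLI1 peaks of any library. Regions run through the start at most genes, while at FOXA3 both begin after it and at FOXP2 replicate 2 leaves it free.

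Replicates differed at some of these genes. FOXF1, a mesenchyme factor of lung and gut, had 1 region of 18364 bases in replicate 1, but replicate 2 had 3 pieces, and the piece over the start measured 1680 bases with a fold of 4.376. FOXP2, known for its role in speech, had 1 region of 5353 bases over the annotated start in replicate 1, while in replicate 2 the regions ended 664 bases before it and began 828 bases after it. This is the outermost FOXP2 start; the start of its reference transcript lies 328488 bases downstream. FOXN4, a retinal and spinal cord factor, was marked from 23 bases after the start in replicate 2 and across it in replicate 1.

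FOX genes that lie next to each other did not all carry the mark. On chromosome 6, FOXQ1, FOXF2 and FOXC1 were each marked in both lists, with 7.516, 15.34 and 6.678 kb covered, but H3K27me3 in both lists filled only 16% of the 74.82 kb between FOXQ1 and FOXF2 and 5.8% of the 214.3 kb between FOXF2 and FOXC1. The marks there were thus separate regions over the genes. On chromosome 16, FOXF1 was marked in both lists, FOXC2 in replicate 1 only (1558 bases, fold 4.286) and FOXL1 in neither, with 0 kb marked in the gaps between them. FOXC2 acts in lymphatic vessels and FOXL1 in gut mesenchyme. On chromosome 1, FOXD2 had FLI1 in 4 lists and its neighbour FOXE3, a lens factor 19.99 kb away, had no peak of any list in its window.

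FOXC1, a factor of the eye and skeleton, held a FLI1 region inside its H3K27me3 region. It lay on chromosome 6 from 1607283 to 1607649, 2.556 kb upstream of the start, and was listed in set A only, with folds of 7.448 and 9.693. The H3K27me3 regions around it ran from 1605238 to 1611980 and from 1605076 to 1611915. It was outside the 1 kb window, so FOXC1 counts among the starts without FLI1.

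Besides the H3K27me3-marked FOXF1 and FOXP2, FLI1 at the start in 1 to 3 lists was seen for FOXA1, FOXD1, FOXD3, FOXI3, FOXJ1, FOXK1, FOXK2, FOXN3, FOXO1, FOXO4 and FOXO6. In 5 of these (11.1%), FOXD3, FOXI3, FOXJ1, FOXK1 and FOXO4, it was present in both libraries of set B and neither of set A, against 5.56% of all starts. The reverse was seen at 0 FOX starts, against 1.09%. For FOXK1 the set B pattern depended on the window, since set A peaks lay 1550 to 1325 and 1576 to 1323 bases upstream. Within 2500 bases FOXK1 had FLI1 in all 4 lists. The set B folds were 10.39 and 8.015 at FOXK1, a glycolysis and autophagy regulator, and 7.898 and 7.868 at FOXJ1, the master gene of motile cilia. They were 8.803 and 5.694 at FOXO4, 7.492 and 7.771 at FOXI3, an ectodermal factor, and 8.473 and 5.181 at FOXD3, a neural crest factor. Whether the sets differ at these starts was not tested.

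FOXD1 and FOXO6 had FLI1 in set A replicate 2 and both set B libraries. FOXD1, a factor of the kidney stroma, had folds of 5.948, 11.24 and 6.797 over its coding exon, and H3K27me3 no nearer than 1898 bases upstream. FOXO6 had 5.077, 11.04 and 13.23. FOXO1, the insulin-responsive FOXO factor on chromosome 13 (40555667 to 40666641), had FLI1 at the start in set B replicate 1 alone (fold 9.526). Both set A libraries had regions in the intron, 18.29 kb from the start with folds of 9.031 and 7.847 and 17.3 kb from it with 7.398 and 6.924. The FOXO genes thus ranged from FLI1 in 4 lists at FOXO3 to 1 list at FOXO1, and none of the 4 had H3K27me3 in both lists.

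Over the gene body with 10 kb on either side, FLI1 was present in all 4 lists for 15 FOX genes (33.3%), against 56.3% of all genes, and H3K27me3 in both for 19 (42.2%), against 17.6%. Another 19 FOX genes (42.2%) had FLI1 in none of the 4 lists there, against 23.5% of all genes. The 113 FLI1 regions of these windows were in 4 lists in 28 cases (24.8%), against 29.3% of the 55109 FLI1 regions of the genome counted the same way. Of the 113, 28 lay at the gene's own start, 6 at the start of another gene and 79 elsewhere. H3K27ac of at least 1 list overlapped 15 (13.3%), against 18.1% of all FLI1 regions, and H3K27ac of both lists 4 (3.54%), against 7.47%. H3K27me3 of at least 1 list overlapped 4 (3.54%), against 0.993%. FOXP1, whose body spans 629286 bases, held 30 of the regions and FOXK1 held 11. The FLI1 regions in the windows of FOXH1 and FOXP3 were at the starts of their neighbours.

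The FOXP1 gene had its highest FLI1 folds in introns rather than at the start. A region on chromosome 3 from 71201498 to 71204866, 380.2 kb into the gene, had set A folds of 46.18 and 48.9, while those of set B were 19.29 and 17.12. Another, 160.3 kb in (71422669 to 71424093), had 25.36, 24.93, 27.75 and 21.28, and a further one 533.5 kb in (71050040 to 71051911) had 22.69, 26.31, 10.11 and 7.983. At the first and last of these both set A libraries were above both of set B, as folds and as percentiles within the list, and at the middle one the sets overlapped. No H3K27ac peak overlapped any of them. FOXJ2 was similar: 6.141 kb before its start (chromosome 12, 8026025 to 8027515) a region had folds of 35.15, 30.54, 45.94 and 23.8, against at most 9.24 at the start. In FOXP4 an intronic region 32.03 kb in had 24.54, 16.16, 15.06 and 26.9.

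FOXK1 (chromosome 7, 4682295 to 4771442) had intronic FLI1 in 4 lists 24.88 kb into the gene, with folds of 25.61, 19.24, 22.97 and 19.54 and no H3K27ac. A second intronic region 56.77 kb in (4738902 to 4739562) had 13.38, 10.1, 9.599 and 14.37, and H3K27ac in both lists with folds of 6.123 and 5.132. Upstream of FOXK1 the FLI1 peaks changed place between libraries. A region from 4680661 to 4680972 was listed in both set A libraries and set B replicate 2, with folds of 9.714, 10.83 and 8.464, and one nearer the start, from 4681121 to 4681749, in both set B libraries only.

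**Figure D5:**
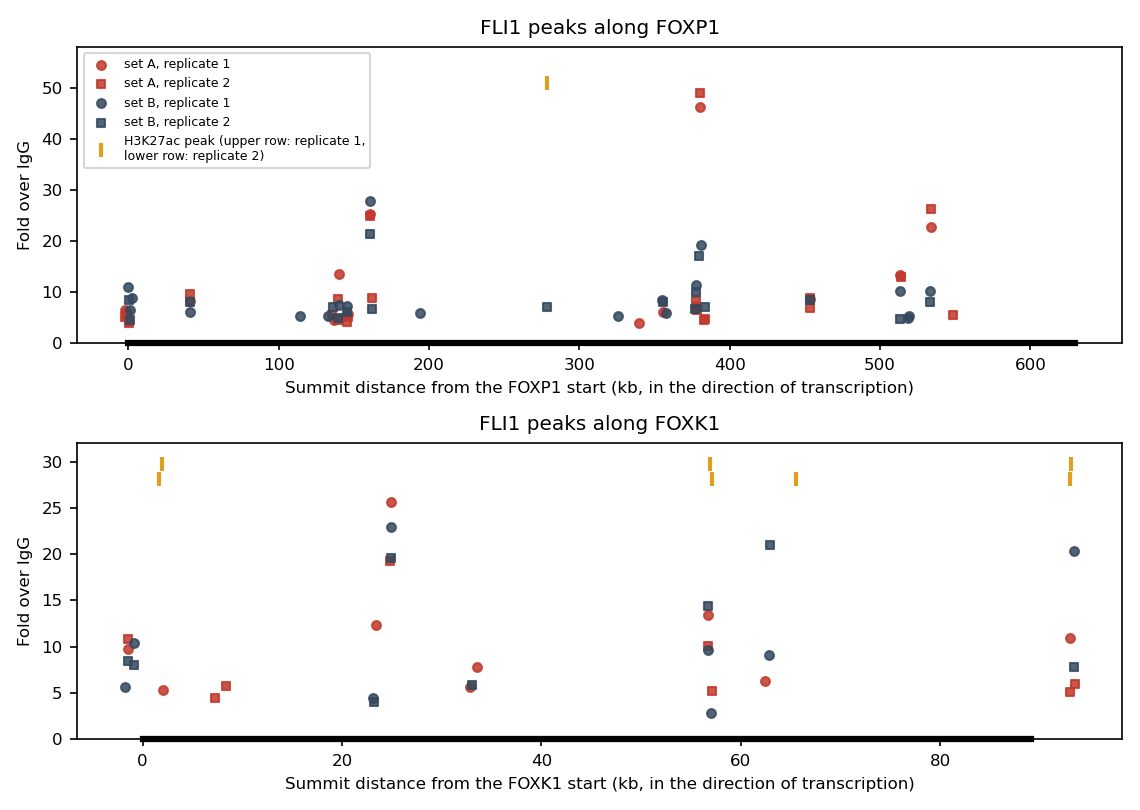
FLI1 peaks along FOXP1 (top) and FOXK1 (bottom): fold over IgG (vertical axis) against distance of the summit from the start in kb (horizontal axis), with set A in red, set B in blue, circles for replicate 1 and squares for replicate 2. Orange ticks are H3K27ac peaks and the black bar is the gene; the highest FOXP1 folds, 46.18 and 48.9, come from set A 380.2 kb into the gene.

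Tandem GGAA lies under some of these regions. Capitals below mark each run of at least 4 GGAA units in a row on the printed strand. The intronic FOXP1 region with the highest folds holds a run of 13 units, 379952 to 380072 bases from the start for the window shown. The run is not at the summit of that region, at 71203734, which has no GGAA or TTCC within 50 bases. The 250 bases either side of the summit take in 11 of the units. The first FOXK1 window, 1707 to 1587 bases upstream, holds a run of 13, and the second, 988 to 868 bases upstream, a run of 5. The FLI1 region from 4680661 to 4680972 begins inside the run of 13 and itself holds at most 3 units in a row.
FOXP1 intron, chr3:71203906-71204026, plus strand: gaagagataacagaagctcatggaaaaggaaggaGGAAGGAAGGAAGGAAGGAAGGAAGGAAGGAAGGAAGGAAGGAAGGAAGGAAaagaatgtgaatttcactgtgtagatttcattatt
FOXK1 upstream, chr7:4680588-4680708, plus strand: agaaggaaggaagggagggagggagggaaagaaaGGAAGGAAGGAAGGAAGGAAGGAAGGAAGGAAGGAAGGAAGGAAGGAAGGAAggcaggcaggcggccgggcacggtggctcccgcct
FOXK1 upstream, chr7:4681307-4681427, plus strand: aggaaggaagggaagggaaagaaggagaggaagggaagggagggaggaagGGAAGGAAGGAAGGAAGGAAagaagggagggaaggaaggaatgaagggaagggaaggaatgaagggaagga
Within 250 bases of the summit such a run, or its reverse complement, was found in 4 of the 113 FLI1 regions of FOX windows (3.54%), against 3.86%, 3.81%, 3.84% and 4.08% of all regions in the 4 lists. These 4 are the FOXP1 region and regions upstream of FOXK1. The FOXK1 regions from 4680386 to 4680613, in 1 list, and from 4680661 to 4680972 count the same run of 13. The former holds at most 2 units in a row.

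H3K27ac was present in both lists over the body and flanks of 8 FOX genes (17.8%), FOXD2, FOXJ3, FOXK1, FOXK2, FOXM1, FOXN2, FOXO3 and FOXP4, against 28.3% of all genes. FOXK2, a relative of FOXK1, had intronic peaks 15.03 kb in. Those of FOXO3 lay 29.07 and 29.14 kb in, with folds of 4.208 and 5.179, and those of FOXD2 between 3545 and 2867 bases upstream, with 4.365 and 6.971. In FOXJ3 and FOXP4 the peaks of the replicates did not lie at the same place. Asking a −log10 q of at least 5 left 2 of the 8.

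H3K9me3 was present in both lists over body and flanks for 8 FOX genes (17.8%), against 25.3% of all genes: FOXA1, FOXD2, FOXD3, FOXJ3, FOXK1, FOXN2, FOXN3 and FOXP1. In FOXJ3, FOXN2, FOXN3 and FOXP1 regions of both replicates lay inside the gene. FOXJ3 had regions of 8017 and 9332 bases with folds of 6.523 and 6.884, and further in the 5′ direction regions of 10843 and 9164 bases with 5.596 and 5.292. FOXN2 had an intronic region of 6853 and 5119 bases with 6.406 and 5.701. FOXJ3 and FOXN2 had FLI1 in all 4 lists at the start, which these regions did not reach. FOXD3 was the only FOX gene with H3K9me3 at the start in both lists. There the mark lay from 3805 to 900 and from 3508 to 919 bases upstream, with folds of 4.224 and 5.088, and touched the edge of the 1 kb window. Replicate 1 had a second region from 154 bases after the start. Within 500 bases the count of such FOX starts was 0. FOXA1, a pioneer factor of breast, prostate and liver, had short H3K9me3 regions of 595 and 506 bases over its coding exon.

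A further 11 FOX genes lay outside these groups, among them FOXC2, FOXD4, FOXE3, FOXH1, FOXI1, FOXL1, FOXP3, FOXR1, FOXR2 and FOXS1, and 7 of them have a single exon. At 9 of their starts (20% of FOX genes, against 32.6% of all genes) no peak of any list was present, while FOXC2 had H3K27me3 in replicate 1 only. FOXE3, FOXI1, FOXR1 and FOXR2 had no peak over body and flanks either (8.89%, against 10.3%). FOXD4 and FOXS1 did carry H3K27me3 in both lists there, outside the 1 kb window of the start. It covered 5.064 kb (22.8%) at FOXD4 and 4.35 kb (20.4%) at FOXS1, against 3.783 kb at FOXA3, which counts as marked. FOXP3, the regulatory T cell factor, FOXI1 of kidney and inner ear, and FOXR2, normally a testis gene, belong here. FOXD4 has near-identical copies elsewhere in the genome, so that its reads may be split or dropped and its empty start is uncertain.

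Genes that act with the FOXO and FOXM1 factors were taken from 3 short lists of textbook partners and are described without a test. Of 10 genes acting upstream of FOXO (the insulin receptor, its substrates and AKT), 5 had FLI1 in all 4 lists at the start, among them PDPK1 and AKT2, and AKT2 also had H3K27ac in both. Of 12 FOXO targets, 8 had FLI1 in all 4, among them SESN1, SESN3, CAT and TXNIP. None of these 12 had H3K27ac in both, and PDK4 alone had H3K27me3 in both. Of 13 FOXM1 targets, genes of mitosis, 8 had FLI1 in all 4 and 6 had H3K27ac in both, namely AURKA, CCNB2, CDC20, CENPF, NEK2 and SKP2. Over all genes the shares were 33.8% and 11.3%.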

How the data were processed

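CUT&RUN libraries of TC-32 cells were deposited as 1 peak list per antibody and replicate; the file names pair each with the IgG library of its set and number and name duplicates as removed. The submitters' processing notes name cutadapt 4.4, Bowtie2, Picard 2.17.11, MACS2 2.1.1 and hg38, without saying which step used which. The fold over IgG (a ratio) and the −log10 p and −log10 q of each peak are the authors' deposited values. A yeast spike-in is named in the labels' protocols; whether it scaled these values is not given in the sources used here, so an order between lists is given only where folds and within-list percentiles both show it.

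Overlapping peaks of a list were merged, and genes of GENCODE release 44 were counted when at least 1 base of a peak fell within 1 kb of the start, or in the gene with 10 kb on either side (Python 3.11.15, numpy 2.4.6). A gene start is the outermost one annotated. The counting was tested on simulated peaks. FOX members and gene lists were chosen with earlier results of these data known. Named genes are all FOX genes bound or marked by FLI1, H3K27ac or H3K9me3 in every list, the 8 with most H3K27me3, starts with FLI1 in 1 set only, and preset genes such as FOXO1 and FOXC1. Counts carry no test. Alternatives were other windows, flanks, a −log10 q of at least 5, 200 covered bases, any list in place of every list, and each library left out. Sequence and annotation were read from hg38. FOXH1 sequence was not used. Values of 1 FOX gene, and some sequences, are not reported here; the gene stays in the counts.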

Additional observations from a re-analysis of the deposited data

How the results depend on the processing

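No paired analysis was possible because the results are counts of genes and come from no test. FLI1 at the start in all 4 lists (9 FOX genes) rose to 22 when any list sufficed and to 12 within 2500 bases. It was 7 within 500 bases, 7 at a −log10 q of at least 5, and from 9 to 11 when 1 library was left out. FLI1 over body and flanks (15) was 9 in the gene body alone, 24 with flanks of 50 kb and 26 in any list. H3K27ac at the start (1) was 3 within 2500 bases, 3 in any list, 0 at a −log10 q of at least 5, and from 1 to 3 with a library left out. H3K27ac over body and flanks (8) was 15 with 50 kb, 14 in any list and 2 at the stricter q, and 10 to 12 with a library left out. H3K9me3 at the start (1) was 0 within 500 bases, 0 when 200 covered bases were asked and 0 at the stricter q; over body and flanks (8) it was 5 in the body alone, 15 with 50 kb and 2 at the stricter q. H3K27me3 over body and flanks (19) was 11 at the stricter q. Genes with over 50% covered (5) were 9 at 25%, 0 at 75%, 9 over the body alone and 3 at the stricter q. H3K27me3 at the start (15) ran from 10 to 17 over every alternative tried. Without read totals in the lists, depth cannot be set beside any count.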
